A study of Mus musculus with 5 samples.

Results

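Forkhead transcription factors were examined as a family in embryonic mouse forelimbs. Members were chosen by gene symbol (Fox, a letter, a number and at most a further letter), with 1 row per symbol. This gave 41 genes of the 28092 rows in the authors' full table, and of 22653 single named genes. The Prmt5cKO samples (n = 2) carried the genotype Prx1Cre+/-;Prmt5c/c, in which Prx1Cre, a recombinase active in limb bud mesenchyme, meets a conditional allele on each copy of Prmt5, an arginine methyltransferase gene. The Control samples (n = 3) are labelled only as control, so the alleles that they carried are not stated here. All embryos came from a mix of C57BL/6 and Swiss Webster mice and were taken at E11.5, with 47 to 48 somites, and the tissue was the whole forelimb. RNA was extracted with TRIzol. The values are 1 FPKM (fragments scaled to transcript length and to the mapped total) per genotype, so no SD over samples can be given, overlap between samples cannot be seen, and sequencing depth is not known.

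Forkhead factors bind DNA through a winged helix domain, and most recognise a short core of the form TAAACA. The family is divided into lettered groups. FoxC factors act in the mesenchyme of skeleton, eye and vessels. FoxP factors are mostly transcriptional repressors that act in lung, heart and neural development. FoxO factors are kept out of the nucleus by insulin and growth factor signals through Akt, and FoxK and FoxN factors are expressed in many cell types. Foxm1, which drives genes of mitosis, shares a row with a neighbouring transcript in the authors' table, as do Foxj2 and Foxp3, so these genes are not among the 41.

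The helix of the forkhead domain that enters the major groove of DNA is shown as its coding bases for Foxc1 and Foxn3, which were lower in Prmt5cKO forelimbs, and for 4 other members past 1 FPKM, because it shows how alike members are at the part that reads DNA. The 30 bases were taken from the coding strand of GENCODE M21 transcripts by a pattern search and run 5′ to 3′, and capitals mark bases that differ from Foxc1:
Foxc1: aacagcatacggcacaacctctcgctcaac
Foxp4: aaTGCcGtGcgCcacaacctcAGCctGCac
Foxn3: aacTCAGtGAgAcacaacTtGtcATtGaaT
Foxn2: aaTTCTGtTcggcaTaaTctAtcCctGaaT
Foxo4: aacTCcatCcgTcacaacctGtcCTtGCac
Foxo3: aacTCcatCcggcacaacctGtcCctGCac
The Foxo4 and Foxo3 stretches had 28 of 30 bases in common, Foxc1 and Foxp4 had 19, and Foxc1 and Foxn3 had 17. Foxp2, which was lower as well, is not shown, and its stretch had 15 bases in common with that of Foxc1. Over the 12 members with a mean of at least 1 FPKM, 11 of the 30 bases were the same in every gene. The search pattern requires set amino acids at several positions, so many of these bases were fixed in advance. The same bases enter the counts for each pair, which therefore partly reflect the search. The pattern was found in 34 of the 41 members, and a member without a match need not lack the helix, since the pattern allows little variation at the positions it sets.

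The genotypes also differed in checks of the samples themselves. Prmt5 had 12.5 FPKM in Prmt5cKO and 40.9 FPKM in Control forelimbs (log2 fold -1.71 with its q at 0, from the authors' deposited table); this covers the whole gene, and the sources used here do not say which exons the allele loses. Xist, which coats the silenced X chromosome, had 0.392 FPKM in Prmt5cKO and 87.3 FPKM in Control, and the Y-linked Ddx3y had 21.8 FPKM in Prmt5cKO and 0.0840 FPKM in Control, so the effects of genotype and of embryo sex cannot be told apart for any member, among them the X-linked Foxo4. Markers of limb mesenchyme were present, with 12 of 12 past 1 FPKM, a sum of 612 FPKM in each genotype, 8 not past the authors' q and 4 not tested. Of endothelial markers 3 of 15 were lower and their sum was 124 FPKM in Prmt5cKO and 134 FPKM in Control. Of markers of muscle progenitors and muscle fibres 3 of 10 were lower, with sums of 137 FPKM in Prmt5cKO and 169 FPKM in Control. The 3 were the fibre genes Myl1, Tnnt1 and Myh3. Other muscle genes are named after their values were seen. Lbx1, Myf5 and Myod1 had ratios of Prmt5cKO to Control above 1, Myog and Met below 1, and none of these passed. Pax3, with a mean below 1 FPKM, had 1.14 FPKM in Prmt5cKO and 0.525 FPKM in Control (q = 0.00187 in the authors' deposited table). Of nerve and Schwann cell markers 2 of 7 were lower, with sums of 31.2 FPKM in Prmt5cKO and 33.4 FPKM in Control. Of macrophage markers 10 of 13 were higher (sums of 76.0 FPKM in Prmt5cKO and 40.8 FPKM in Control). Of apical ridge markers 5 of 9 were higher (sums of 108 FPKM in Prmt5cKO and 90.5 FPKM in Control). Most of the apical ridge sum came from the untested Wnt5a, named after its values were seen, at 66.9 FPKM in Prmt5cKO and 63.1 FPKM in Control. Of surface ectoderm markers 2 of 14 were higher and 1 lower (193 FPKM in Prmt5cKO and 199.6 FPKM in Control), and of red cell markers 1 of 10 was lower (7357 FPKM in Prmt5cKO and 9243 FPKM in Control). By the same rule (a mean of at least 1 FPKM and the authors' q under 0.05), 17.6% of all genes were lower and 4.39% higher. No marker was listed at 0 in both genotypes. Foxc1 and FoxP genes are known from several of these cell types, and the part of cell composition in their values was not tested; in whole tissue, fewer cells of a type and less RNA per cell cannot be told apart.

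The family ran from Foxo4, a FoxO factor encoded on the X chromosome, at 29.2 FPKM in Prmt5cKO and 34.9 FPKM in Control forelimbs, down to members listed at 0. Of the 41 members, 12 had a mean over the genotypes of at least 1 FPKM, 24 lay below it with some signal, and 5 were listed at 0 in both genotypes. The 12 summed to 118 FPKM in Prmt5cKO and 137 FPKM in Control forelimbs, and made up 97.1% of the summed level of all 41 in Prmt5cKO and 97.6% in Control. The 12 belonged to the O, K, N, J, P and C groups, and in each genotype the FoxO genes held the largest share, 34.6% of the family sum in Prmt5cKO and 33.5% in Control. FPKM is corrected for transcript length, so these levels can be set roughly side by side between genes. Base composition and overlapping genes can also affect them and were not corrected for here.

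**Figure D1:**
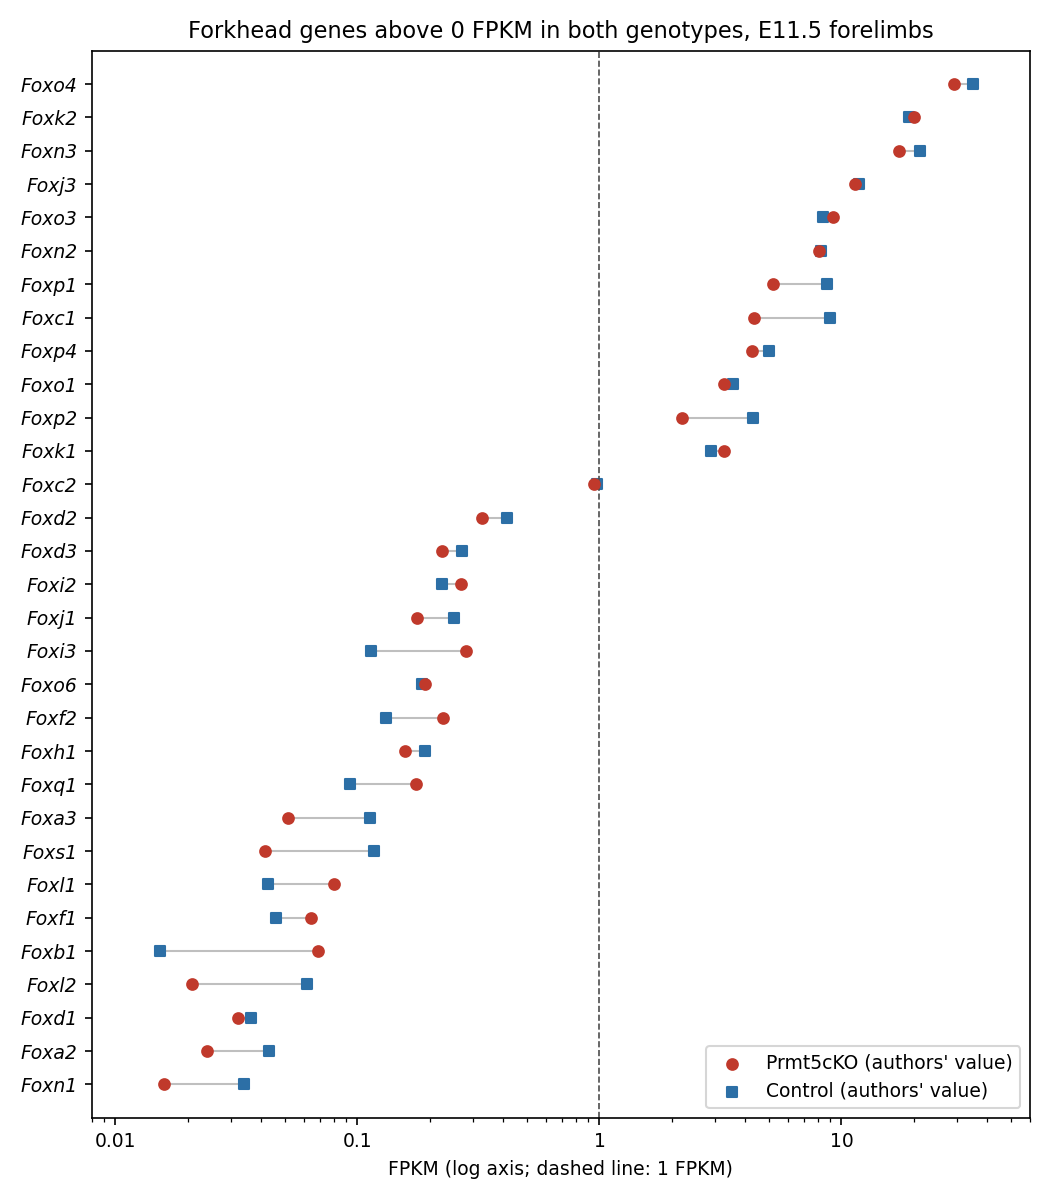
FPKM of the 31 forkhead genes above 0 in both genotypes (log axis), with the authors' value for Prmt5cKO as circles and for Control as squares. The 12 genes right of the dashed line at 1 FPKM run from Foxo4, at 29.2 in Prmt5cKO and 34.9 in Control, down to Foxk1, at 3.26 in Prmt5cKO and 2.90 in Control, and the widest gaps among them are those of Foxc1, Foxp2 and Foxp1.

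Foxc1, Foxp2 and Foxn3 were lower in Prmt5cKO forelimbs at the authors' q under 0.05, and no member was higher. Of the 12 members past 1 FPKM, 3 were lower, 8 did not pass and 1 (Foxp1) was not tested by the authors. Of all 11674 single genes past 1 FPKM, 17.6% were lower and 4.39% higher by the same rule. With 12 members, 3 falls is a share near that of all genes and no result about the family as a whole. Unadjusted p-values are not in the tables used here, so the count of 0 rests on the authors' q alone. Of the 12, 9 had a ratio of Prmt5cKO to Control below 1 (75%), against 69.8% of all genes. Their median log2((Prmt5cKO FPKM + 1) / (Control FPKM + 1)) was -0.14, against -0.12 over all genes. The fold changes of all tested genes leaned downwards, with a median of -0.13, and values relative to that median are given for Foxc1, Foxp2, Foxp1, Foxn3 and Foxo4.

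Foxc1, required in mice for skeleton, eye and heart vessels, had 4.33 FPKM in Prmt5cKO and 8.99 FPKM in Control forelimbs. This was 48.2% of the control level. The authors' deposited table gives a log2 fold change of -1.05 at q = 3.38e-10, which is -0.92 relative to the median of all genes. Among 10614 tested genes 139 had a lower fold change. Foxc1 stood 5th of the 41 members by level in Control and 8th in Prmt5cKO. It is also the only member in the authors' shorter deposited table of 208 rows, in which the smallest absolute log2 fold change is 1.003 and the largest q is 0.00958.

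Foxc1 occupies bases 31806633 to 31812476 of chromosome 13, plus strand (GENCODE M21, GRCm38, the assembly also called mm10), and has 1 exon. The 250 bases before its start in RefSeq, on GRCm38.p6 at chr13:31806396-31806645, plus strand, are shown because among the 12 members past 1 FPKM it has the fold change farthest from 0, with a match to CCAAT, here on the other strand as ATTGG, in capitals:
Foxc1 promoter: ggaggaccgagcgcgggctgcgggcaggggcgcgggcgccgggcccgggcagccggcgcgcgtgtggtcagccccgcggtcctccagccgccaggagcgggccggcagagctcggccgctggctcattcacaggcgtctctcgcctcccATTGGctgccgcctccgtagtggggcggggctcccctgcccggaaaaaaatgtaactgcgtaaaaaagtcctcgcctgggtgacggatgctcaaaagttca
The end of this window lies inside the transcript as GENCODE starts it. It held 29 CpG pairs and 70.8% G and C, against medians of 6 and 52.4% over 32851 promoter windows of this length. Many CpG pairs were not particular to Foxc1. Among members past 1 FPKM that did not pass the authors' q, the window held 48 in Foxk2, 34 in Foxj3 and 31 in Foxo3. It held 27 in Foxp4 and 20 in Foxo1. CCAAT on either strand was in 33.8% of those windows. The letters TAAACA, searched on both strands (TGTTTA on the other), were not in the Foxc1 window and were in 12.0% of all. The RefSeq table has no promoter for Foxp2, and its window for Foxn3 lies inside the gene as GENCODE annotates it and is not shown.

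Of the FoxP genes 1 was lower at the authors' threshold, 1 was not tested and 1 did not pass. Foxp2, known for its part in speech and in lung and brain development, had 2.19 FPKM in Prmt5cKO and 4.31 FPKM in Control forelimbs. The authors' deposited table gives a log2 fold change of -0.98 and lists the q as 0; the fold is -0.85 relative to the median of all genes. Foxp1, a regulator of heart, B cell and limb motor neuron development, had 5.22 FPKM in Prmt5cKO and 8.68 FPKM in Control forelimbs. The authors list it with a fold of 0 and a q of 1, which is read here as not tested; the log2 ratio of its FPKM values is -0.73, or -0.60 when set against the median of all genes, and no test stands behind it. Of all genes past 1 FPKM, 9.05% were untested in this way. Foxp4, the third member with a row of its own, had 4.28 FPKM in Prmt5cKO and 5.003 FPKM in Control forelimbs, with q = 0.213 in the authors' deposited table. The 3 summed to 11.7 FPKM in Prmt5cKO and 18.0 FPKM in Control, 65.0% of the control sum, and 71.2% after rescaling by the median ratio. The difference between Foxp4 and its relatives was not tested. Foxp2 spans 541 kb of chromosome 6 and Foxp1 597 kb of the same chromosome, the longest spans among the 12.

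Foxn3, a transcriptional repressor first known as a suppressor of checkpoint defects, had 17.2 FPKM in Prmt5cKO and 21.2 FPKM in Control forelimbs. The authors' deposited table gives a log2 fold change of -0.30 at q = 2.51e-07, which is -0.17 relative to the median of all genes. Of the tested genes 26.9% had a lower fold change. Foxn3 spans 374 kb on chromosome 12, and 2 annotated genes overlap it on the opposite strand. The sources used here do not say whether the counting used strand. Its relative Foxn2 had 8.07 FPKM in Prmt5cKO and 8.22 FPKM in Control forelimbs, with q = 0.867 in the authors' deposited table.

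**Figure D2:**
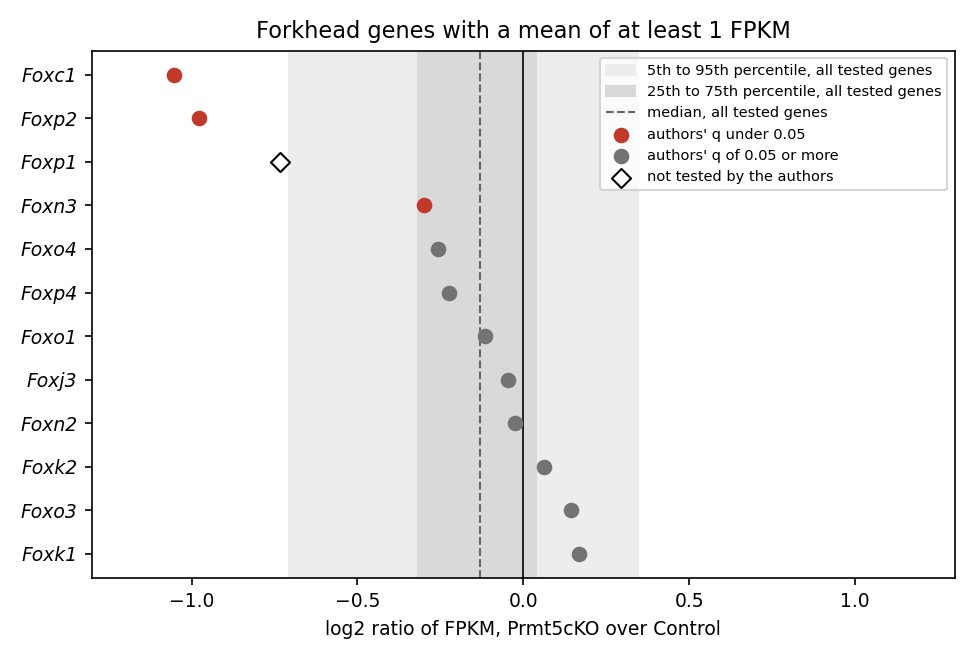
Log2 ratio of FPKM, Prmt5cKO over Control, for the 12 forkhead genes with a mean of at least 1 FPKM, over shaded ranges of all 10614 tested genes (5th to 95th percentile from -0.71 to 0.35, 25th to 75th from -0.32 to 0.04, dashed median at -0.13). Foxc1 at -1.05, Foxp2 at -0.98 and the untested Foxp1 at -0.73 lie left of the wider range, and the other 9 lie inside it.

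None of the FoxO genes, effectors of insulin and growth factor signalling, passed the threshold. Foxo4 had 29.2 FPKM in Prmt5cKO and 34.9 FPKM in Control forelimbs, and the authors' deposited table gives a log2 fold change of -0.26 at q = 0.0873, which is -0.13 relative to the median of all genes. Foxo3 had 9.24 FPKM in Prmt5cKO and 8.37 FPKM in Control (q = 0.455), and Foxo1 had 3.28 FPKM in Prmt5cKO and 3.56 FPKM in Control (q = 0.698), both in the authors' deposited table. Foxo3 and Foxo4 thus lay on opposite sides of a ratio of 1, while Foxo1 changed sides when values were set against the median of all genes. Foxo6, a FoxO member of brain, was at 0.191 FPKM in Prmt5cKO and 0.185 FPKM in Control.

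The FoxK genes, which repress autophagy genes in well-fed cells, were the expressed members with ratios above 1 besides Foxo3. Foxk2 had 19.9 FPKM in Prmt5cKO and 19.0 FPKM in Control forelimbs (q = 0.746), and Foxk1, known in mice from muscle progenitors, had 3.26 FPKM in Prmt5cKO and 2.90 FPKM in Control (q = 0.406), both in the authors' deposited table. Foxj3 had 11.4 FPKM in Prmt5cKO and 11.8 FPKM in Control (q = 0.628 in the authors' deposited table). With rescaling by the median ratio or quantile normalization, 9 of the 12 members kept the side of 1 on which their ratio lay, and Foxj3, Foxn2 and Foxo1 changed from below to above.

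The rows that Foxm1 and Foxj2 share with other transcripts are given as rows, since the part of each gene is not known. The row of 4933413G19Rik and Foxm1 had 10.7 FPKM in Prmt5cKO and 8.59 FPKM in Control forelimbs, and the authors' deposited table gives a log2 fold change of 0.32 at q = 0.0255. The row of Foxj2 and Mir7231 had 2.04 FPKM in Prmt5cKO and 2.18 FPKM in Control, with q = 0.828 in the authors' deposited table. The row of Foxp3, the factor of regulatory T cells, and Ppp1r3fos was at 0.494 FPKM in Prmt5cKO and 0.541 FPKM in Control.

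Below 1 FPKM stood most of the forkhead genes with restricted roles. Foxc2, a factor of lymphatic vessels and mesenchyme, lay just under the limit, at 0.951 FPKM in Prmt5cKO and 0.973 FPKM in Control forelimbs (q = 0.967 in the authors' deposited table). The other 23 with signal had means from 0.00712 (Foxa1) to 0.372 FPKM (Foxd2). Each was listed with a q of 1, and whether the authors tested them is not known. Foxd3, a factor of neural crest, had 0.223 FPKM in Prmt5cKO and 0.271 FPKM in Control forelimbs. Foxi3, a factor of ectodermal appendages, had 0.280 FPKM in Prmt5cKO and 0.114 FPKM in Control. Foxf1, like Foxf2 a hedgehog-responsive gene of gut mesenchyme, had 0.0643 FPKM in Prmt5cKO and 0.0462 FPKM in Control. The endoderm factors Foxa1, Foxa2 and Foxa3 had means no higher than 0.0820 FPKM. Members listed at 0 in 1 genotype included Foxr2 and Foxn4 in Control, and Foxb2 and Foxa1 in Prmt5cKO. Listed at 0 in both were Foxd4, Foxe1, Foxe3, Foxi1 and Foxr1, the genes Foxe1 and Foxe3 being known from thyroid and lens. An FPKM of 0 in these tables can also be a failed estimate, and with the depth unknown no upper limit can be set for it.

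Among forkhead genes that neighbour each other only Foxc1 passed 1 FPKM, so the levels of the other neighbours are given as listed values near the floor. Within 200 kb of another member lay 8 of the 41, in 3 groups. On chromosome 13 Foxq1, Foxf2 and Foxc1 start within 250.5 kb of each other: Foxc1 had 4.33 FPKM in Prmt5cKO and 8.99 FPKM in Control forelimbs, whereas Foxf2 was at 0.225 FPKM in Prmt5cKO and 0.131 FPKM in Control, and Foxq1 at 0.175 FPKM in Prmt5cKO and 0.0930 FPKM in Control. On chromosome 8 Foxf1, Foxc2 and Foxl1 follow each other, with Foxc2 at 0.951 FPKM in Prmt5cKO and 0.973 FPKM in Control and its neighbours under 0.1 FPKM. By listed value the FoxC gene was thus the highest of its neighbours on both chromosomes, although on chromosome 8 all 3 lay below 1 FPKM. On chromosome 4 Foxd2 was at 0.328 FPKM in Prmt5cKO and 0.415 FPKM in Control, and Foxe3, 16.3 kb away, was listed at 0. Exons were counted in the transcript with the longest coding part. Of 13 members with 1 exon only Foxc1 passed 1 FPKM, whereas 11 of the 28 with several exons did. This difference was not tested, the same shares over all genes were not computed, and exon number was not separated from lettered group.

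**Figure D3:**
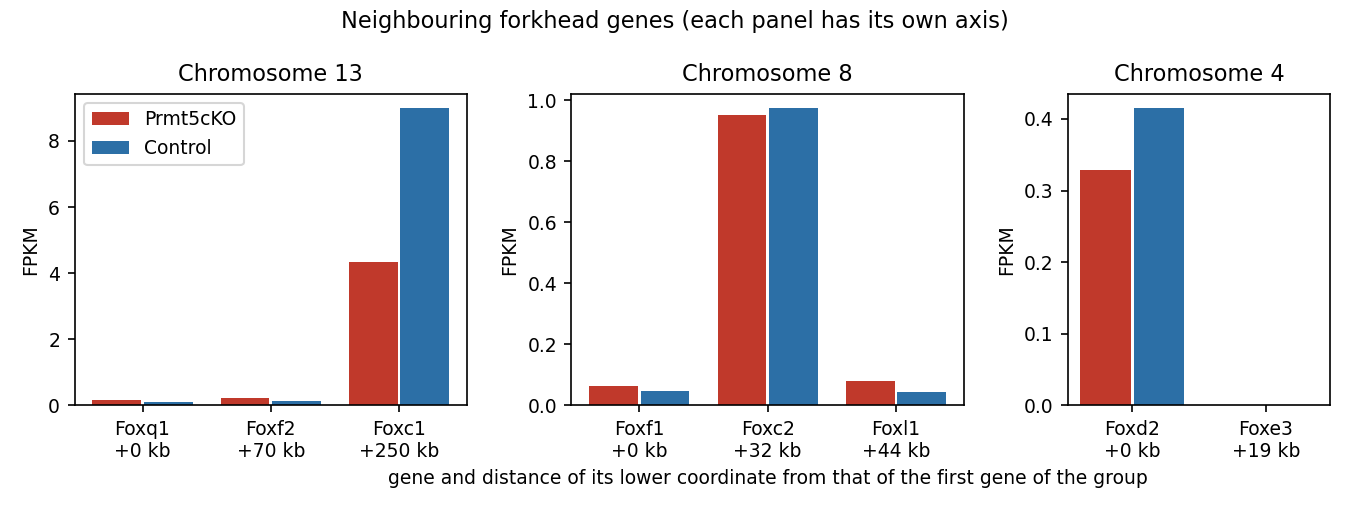
FPKM (linear axes, a separate scale in each panel) of forkhead genes within 200 kb of each other, in chromosomal order, with Prmt5cKO bars left of Control bars and the distance from the first gene in kb. Foxc1 on chromosome 13, at 4.33 FPKM in Prmt5cKO and 8.99 FPKM in Control, stands far above Foxq1 and Foxf2, and Foxc2 on chromosome 8 above Foxf1 and Foxl1.

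Genes known as direct targets of FoxO factors were lower in several cases, although no FoxO gene itself passed. Of 25 such genes 17 passed 1 FPKM, of which 8 were lower, none was higher, 8 did not pass and 1 was not tested, against 17.6% lower over all genes. The median log2 ratio of the 17 was -0.27, against -0.12 over all genes. At q under 0.01 the count was 3 (12.3% lower over all genes), and with a fold of at least 1.5 in addition to q under 0.05 it was 2 (6.19%). Sesn3, a stress-induced inhibitor of growth signalling, had 17.1 FPKM in Prmt5cKO and 28.5 FPKM in Control forelimbs, and the authors' deposited table gives a log2 fold change of -0.74 with its q at 0. Ccng2, a cyclin of resting cells, had 36.8 FPKM in Prmt5cKO and 55.4 FPKM in Control (log2 fold -0.59, q = 4.14e-14 in the authors' deposited table). Sesn1, which is a target of p53 as well, had 13.4 FPKM in Prmt5cKO and 19.2 FPKM in Control (log2 fold -0.52, q = 2.7e-07 in the authors' deposited table). Cell cycle inhibitors among the other falls were Cdkn1b, at 22.1 FPKM in Prmt5cKO and 26.5 FPKM in Control (q = 0.0184 in the authors' deposited table), and Rbl2, at 3.34 FPKM in Prmt5cKO and 4.89 FPKM in Control (q = 0.0171 in the authors' deposited table). The remaining falls were the insulin receptor gene Insr and the autophagy genes Gabarapl1 and Bnip3, chosen after their values were seen, as were Cdkn1b and Rbl2. Many of these genes answer to other factors too, and the part of FoxO proteins in their levels was not tested.

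Of 22 regulators upstream of FoxO proteins, all past 1 FPKM, 1 was higher, 2 were lower, 15 missed the threshold and 4 were untested, against 4.39% higher and 17.6% lower over all genes. The median log2 ratio was -0.13, against -0.12 over all genes. Sgk1, a kinase that phosphorylates FoxO proteins, had 12.2 FPKM in Prmt5cKO and 18.4 FPKM in Control forelimbs (log2 fold -0.59, q = 2.58e-05 in the authors' deposited table). Usp7, a deubiquitinase of FoxO4 and p53 regulators, was the gene that was higher, at 40.3 FPKM in Prmt5cKO and 35.8 FPKM in Control (log2 fold 0.17, q = 0.0203 in the authors' deposited table).

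Of 26 cell division genes known as targets of FOXM1, all past 1 FPKM, 2 were higher, 3 were lower, 17 missed the threshold and 4 were untested. Over all genes the shares were 4.39% higher and 17.6% lower. The median log2 ratio of the 26 was 0.06, against -0.12 over all genes. The part of FOXM1 in the levels of these genes was not tested. Hmmr, a spindle protein gene, had 28.8 FPKM in Prmt5cKO and 20.7 FPKM in Control forelimbs (log2 fold 0.48, q = 2.7e-04 in the authors' deposited table). Bub1, a checkpoint kinase, had 41.9 FPKM in Prmt5cKO and 35.1 FPKM in Control (log2 fold 0.25, q = 3.62e-08 in the authors' deposited table). Cenpa, the centromere histone, had 73.4 FPKM in Prmt5cKO and 85.99 FPKM in Control (log2 fold -0.23, q = 0.00535 in the authors' deposited table), and the other falls, named after their values were seen, were Ccnb2 and Cdc25b. None of the 6 MuvB partners of FOXM1 passed in either direction, and their smallest q was that of Lin37, 0.210, in the authors' deposited table.

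FoxF, FoxC and FoxD genes respond to the hedgehog pathway in several tissues. Of 12 genes of that pathway 11 passed 1 FPKM, of which 2 were higher, 1 was lower, 4 did not pass and 4 were not tested, beside shares of 4.39% higher and 17.6% lower among all genes. Gli1, a direct readout of the pathway, had 9.06 FPKM in Prmt5cKO and 6.502 FPKM in Control forelimbs (log2 fold 0.48, q = 5.18e-06 in the authors' deposited table). Gli2, a transcription factor, had 3.41 FPKM in Prmt5cKO and 5.04 FPKM in Control (log2 fold -0.56, q = 5.01e-07 in the authors' deposited table). The ligand Shh stood below 1 FPKM, at 0.860 in Prmt5cKO and 0.172 in Control (log2 fold 2.32, q = 6.6e-04 in the authors' deposited table).

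**Figure D4:**
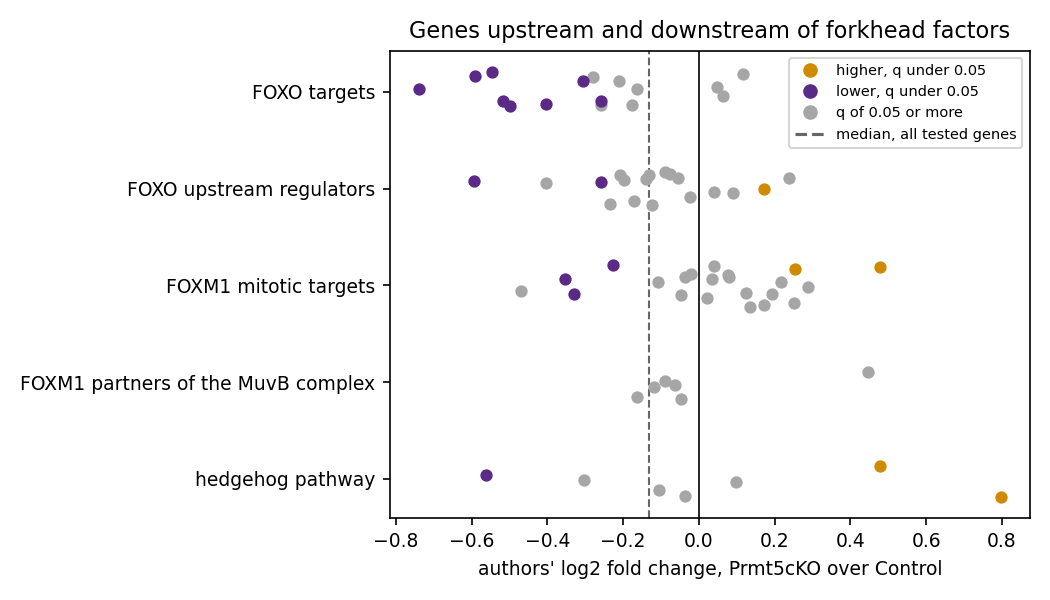
Authors' log2 fold change, Prmt5cKO over Control, of tested genes past 1 FPKM in 5 gene lists tied to forkhead factors, spread vertically within a list for legibility, with q under 0.05 in colour and the median of all tested genes at -0.13 dashed. FoxO targets with a q under 0.05 lie on the lower side only (8 genes), FOXM1 targets on either side (2 higher and 3 lower).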

How the data were processed

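RNA from 2 Prmt5cKO and 3 Control samples was sequenced; groups are from the sample titles. Tools in the submitters' processing notes are Cufflinks 2.1.1, TopHat2 2.0.10 and Bowtie2 2.1.0, with the build mm10 and no roles or settings. Per the file headers, the authors deposited 1 FPKM per genotype, their log2 fold change and a q-value, which is an adjusted p-value; the sources used here do not give their test, its adjustment or how replicates were combined. Deposited folds equal the log2 ratio of the FPKM values within 1.3e-05, except where the fold is 0 with a q of 1 above 0 FPKM, read as not tested (1374 rows), or where 1 genotype is at 0.

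There are no values per sample, so no test was run here, the planned limma fit and omission of replicates were not possible, and depth is unknown. A gene was called at a mean of at least 1 FPKM and the authors' q under 0.05. List medians used log2 ratios with a pseudocount of 1 FPKM. Rows naming no gene (4367) or several genes were left out. The code was tested on simulated data. Some results are not reported here. All members, and up to 3 genes with the smallest q of each list, could be named; the members and lists were chosen with earlier results of these data known. Coordinates are from GENCODE M21 and promoters from RefSeq (GRCm38.p6). Python 3.11.15, pandas 2.3.3, numpy 2.4.6 and matplotlib 3.10.9 were used.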

Additional observations from a re-analysis of the deposited data

How the results depend on the processing

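The count of forkhead genes that were lower was 3 with no minimum level, at q under 0.01 and with all rows of a symbol. Rescaling by the median ratio turned the direction of none of the 3, but the authors' q is for unscaled values and was not recomputed, so these calls were not tested again. The count was 2 with a minimum mean of 5 FPKM (18.2% of all genes lower) and with a fold of at least 1.5 in addition (6.19%), and 4 at q under 0.1 (21.5%), where Foxo4 joins. The count of higher members was 0 under each of these settings. The median log2 ratio of -0.14 was -0.024 with no minimum level, -0.033 after rescaling by the median ratio and, with quantile normalization, 0.0025, so its direction depends on the scaling. It lay between -0.17 and -0.09 under the other 4 settings. Foxc1, Foxp2 and Foxn3 kept their sign under each scaling. Settings for the FoxO and FOXM1 target lists were chosen after seeing the data: lower FoxO targets numbered 2 to 9, and FOXM1 targets 0 to 4 higher and 0 to 3 lower. No paired analysis was possible because the deposited columns carry no replicates, and for the same reason no replicate could be left out. With 1 value per genotype and the depth unknown, no difference of a forkhead gene below 1 FPKM can be judged.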
